A study of Mus musculus with 23 samples.

Results

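Zinc metalloproteases that act outside the cell or at its surface, and the TIMP proteins that inhibit them, were followed in mouse oligodendrocyte progenitor cells (OPCs) and oligodendrocytes (OLs), the cells that make myelin. Members were taken by gene symbol: every Adam, Adamts, Adamtsl or Mmp gene with a number, and Timp1 to Timp4. This gave 82 of the 35385 genes in the deposited tables. The same 82 symbols stood in the table of cultured OPCs, the table of cultured OLs and the table of sorted cells. The rule used symbols and no measured value. They fall into 20 ADAM genes with a zinc-binding motif in their coding sequence, 13 ADAM genes without it, 19 ADAMTS genes, 5 ADAMTS-like genes, 6 membrane-type MMP genes, 15 secreted or other MMP genes and 4 TIMP genes.

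Poly(A) RNA was sequenced in 23 libraries of OPCs grown from mouse epiblast stem cells and of OLs made from them. Per the labels, the stem cell lines were EpiSC5 and 129O1, from the strains 129SvEv and 129S1/SvImJ, and which line gave each library was not used here. In 17 libraries the OPCs had received lentiviral CRISPRv2 with SOX6 guide 1 (2 OPC and 3 OL libraries), SOX6 guide 2 (3 and 3) or a non-targeting guide (3 and 3), and every one of these groups had been through puromycin at 500 ng/mL for 96 hours. Targeted and non-targeting cells came from the same starting batch of OPCs and were infected pools, not clones. The OPC groups then stayed in growth medium with PDGFA and FGF2 for 60 hours. The OL groups spent 60 hours in a permissive differentiation medium that lacks thyroid hormone T3 and were not sorted, so OL here names a culture. The other 6 libraries, with no guide, were 3 of magnetically sorted O1+ OLs and 3 of magnetically sorted OPCs. For OPCs, the protocol text names 129O1 as the line of replicate 2 and EpiSC5 as that of replicate 1. The files listed for the SOX6 libraries are named after EpiSC5, and which source holds for them was not settled. Some replicates may therefore differ in line and strain. Apart from this, the labels do not tell whether replicate libraries stem from different cultures. The p-values reflect only library-to-library spread, which may be technical.

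The ADAM and membrane-type MMP proteases sit in the plasma membrane and cut the outer parts of neighbouring proteins, while ADAMTS and most other MMP proteases are secreted and cut the extracellular matrix. A single zinc ion, held by 3 histidines, does the cutting. Some ADAM proteins have lost that site and act as binding partners instead. TIMP proteins block the active site. In the brain, ADAMTS4 is known as an enzyme of mature oligodendrocytes that cuts chondroitin sulphate proteoglycans, and ADAM11, ADAM22 and ADAM23 are surface partners of the secreted LGI proteins.

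The catalytic site is the feature that separates proteases from the non-catalytic members, so its coding sequence is shown for the proteases that the results turn on. The search, in the reading frame of GENCODE M21 coding transcripts on the build GRCm38, asked for codons of histidine, glutamate, any, any, histidine, any, any, glycine or asparagine or serine, any, any and histidine. It matched 60 of the 82 members and 75 of 21951 protein-coding genes in all (0.342%). The sequences below run 5′ to 3′ on the coding strand. Capitals mark the codons that the search constrained, including the eighth, which may be for glycine, asparagine or serine.
Adamts4 (chr1:171253210-171253915, plus strand, across the junction after exon 3, intron left out): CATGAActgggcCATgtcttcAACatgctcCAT
Adamts7 (chr9:90179456-90180640, plus strand, across the junction after exon 7, intron left out): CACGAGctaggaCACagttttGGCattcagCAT
Mmp15 (chr8:95368585-95368617, plus strand, exon 5): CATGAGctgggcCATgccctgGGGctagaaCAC
Mmp16 (chr4:18051748-18051780, plus strand, exon 5): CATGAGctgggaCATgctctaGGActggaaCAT
Mmp17 (chr5:129596597-129596629, plus strand, exon 5): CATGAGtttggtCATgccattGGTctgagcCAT
Adam9 (chr8:24990326-24990358, minus strand, exon 11): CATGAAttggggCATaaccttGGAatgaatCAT
Adam17 (chr12:21336732-21336764, minus strand, exon 12): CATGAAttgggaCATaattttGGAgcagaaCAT
In Adamts4 the eighth codon is aac, for asparagine, where the other sequences shown have a glycine codon. This is not particular to Adamts4: Adamts1, Adamts9, Adamts15 and Adamts20, not shown, also have asparagine there, and Adamts8 has serine. All 19 ADAMTS genes had the motif across an exon junction, against 1 of the 20 motif-bearing ADAM genes and 0 of the 21 MMP genes. Neither Adam11, Adam22 nor Adam23 had a match, and none was found in the 5 ADAMTS-like and 4 TIMP genes.

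Libraries of the SOX6 experiment held 13124580 to 18551822 estimated counts each. The mean correlation of a library's log values with those of its group was 0.980 or more in OPCs and in non-targeting OLs, and 0.975 to 0.981 in guide 2 OLs. OL guide 1 library B stood apart, with 0.941, against 0.964 and 0.963 for the other guide 1 OL libraries. Member results that rest on it are given with and without it. Results of the related lists are given with it alone. Libraries are lettered by column, and the letters are not tied to the replicate numbers of the labels. Sox6 itself had 88.9 and 75.0 CPM (counts scaled to a common library size) in guide 1 OPCs and 74.4, 67.4 and 86.4 CPM in guide 2 OPCs, against 165, 201 and 234 CPM in non-targeting OPCs. In OLs Sox6 had 259, 157 and 242 CPM with guide 1 and 255, 253 and 255 CPM with guide 2, against 417, 437 and 387 CPM with the non-targeting guide. Every targeted library lay below every control library of its stage, and message remained in each. The 7 oligodendrocyte markers listed for the check (Adamts4, itself a member, among them) summed to 25954 TPM (transcript abundance scaled by transcript length and library) in sorted OLs against 59.8 TPM in sorted OPCs. The same sum was 1308 TPM in non-targeting OLs against 74.5 TPM in non-targeting OPCs.

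Messages of these families were unequal in level. Of the 82 members, 38 reached a group mean of 1 TPM in at least 1 of the 8 groups, and 50 passed the count or TPM filter of at least 1 comparison. The other 32 were tested nowhere, and none of their group means went above 0.811 TPM. Adam20, Adam24, Adam25, Adam26a, Adam26b, Adam29, Adam3, Adam34, Adam39, Adam6a, Adam6b, Mmp10, Mmp20 and Mmp7 were listed at 0 in all 23 libraries. By mean TPM over all libraries the most abundant members were Timp4 (117 TPM), Mmp15 (114 TPM), Timp2 (55.1 TPM) and Adam9 (37.0 TPM).

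**Figure D1:**
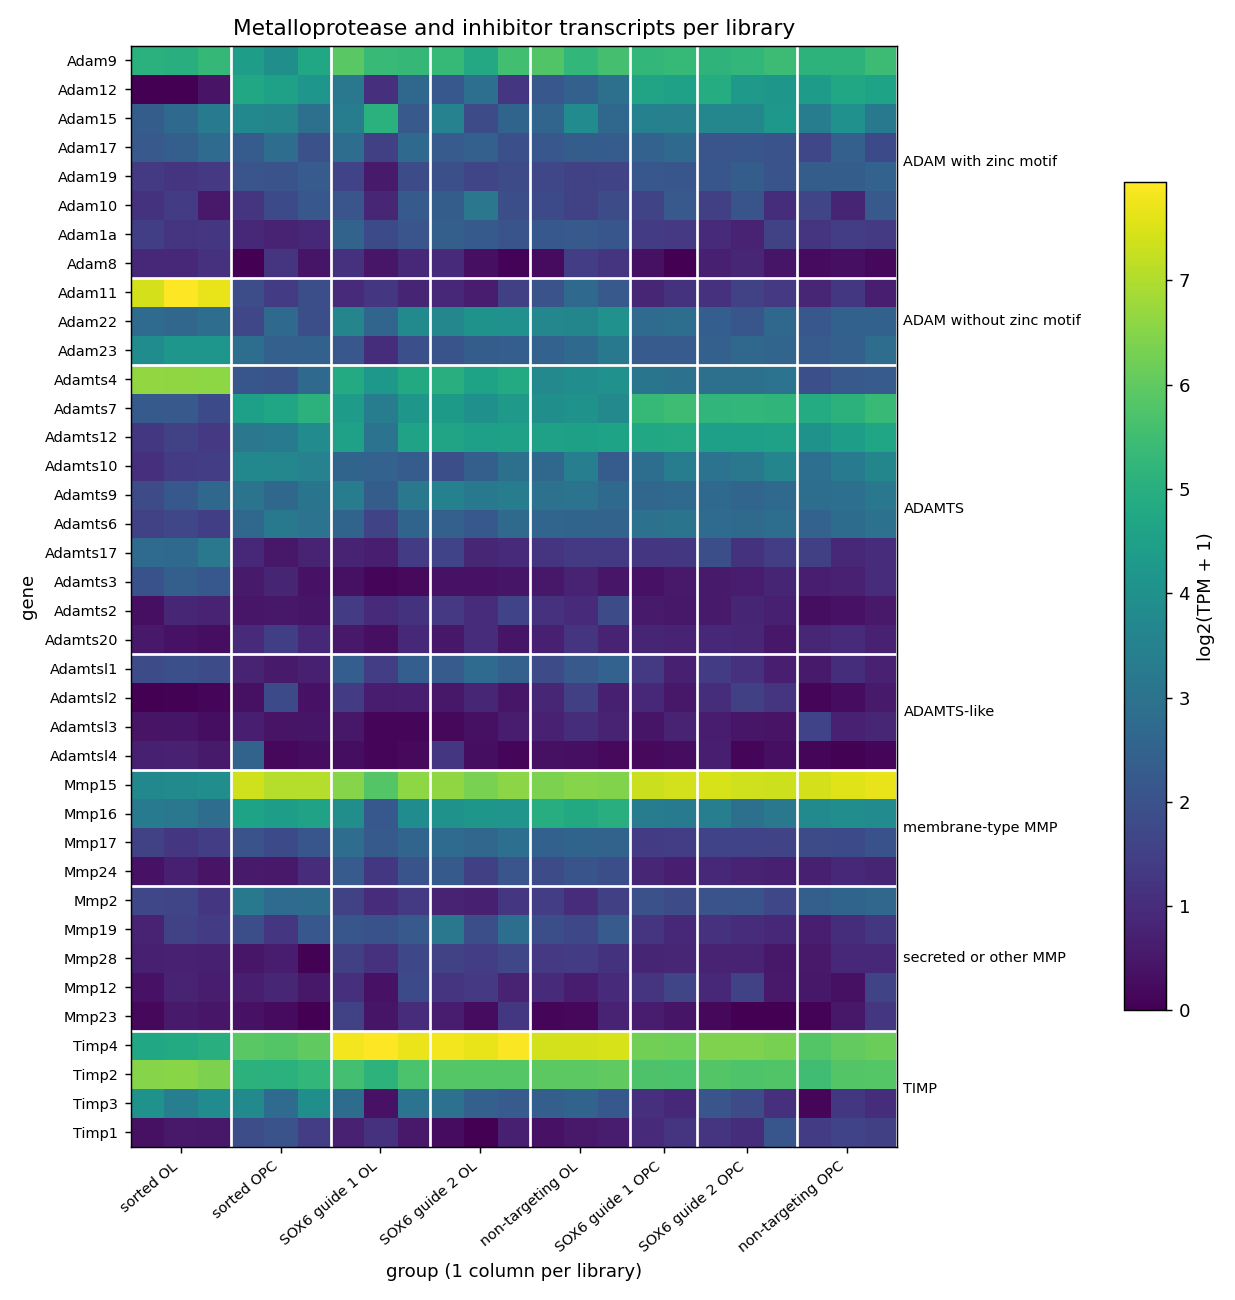
Level of the 38 members with a group mean of at least 1 TPM, as log2(TPM + 1), with 1 column per library and rows grouped by family. Mmp15, Timp4 and Timp2 are high in most libraries, while Adam11 and Adamts4 are brightest in the sorted OL columns, where they averaged 206 and 97.4 TPM.

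The make-up of the families differed between the cell populations. The summed level of all 82 members was 561 ± 40.1 TPM in sorted OLs and 437 ± 26.3 TPM in sorted OPCs (SD, n = 3 each). Membrane-type MMP messages were lower in sorted OLs, with 23.0 ± 0.555 TPM against 169.6 ± 19.9 TPM in sorted OPCs (SD, n = 3 each). ADAM genes without the zinc motif summed to 228 ± 38.2 TPM in sorted OLs against 11.8 ± 0.805 TPM in sorted OPCs (SD, n = 3 each). In the unsorted cultures TIMP messages were the largest share of OLs, at 238 ± 6.62 TPM in non-targeting OLs against 118 ± 14.6 TPM in non-targeting OPCs (SD, n = 3 each). These sums are descriptions, and each is set by the few abundant genes of its family.

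**Figure D2:**
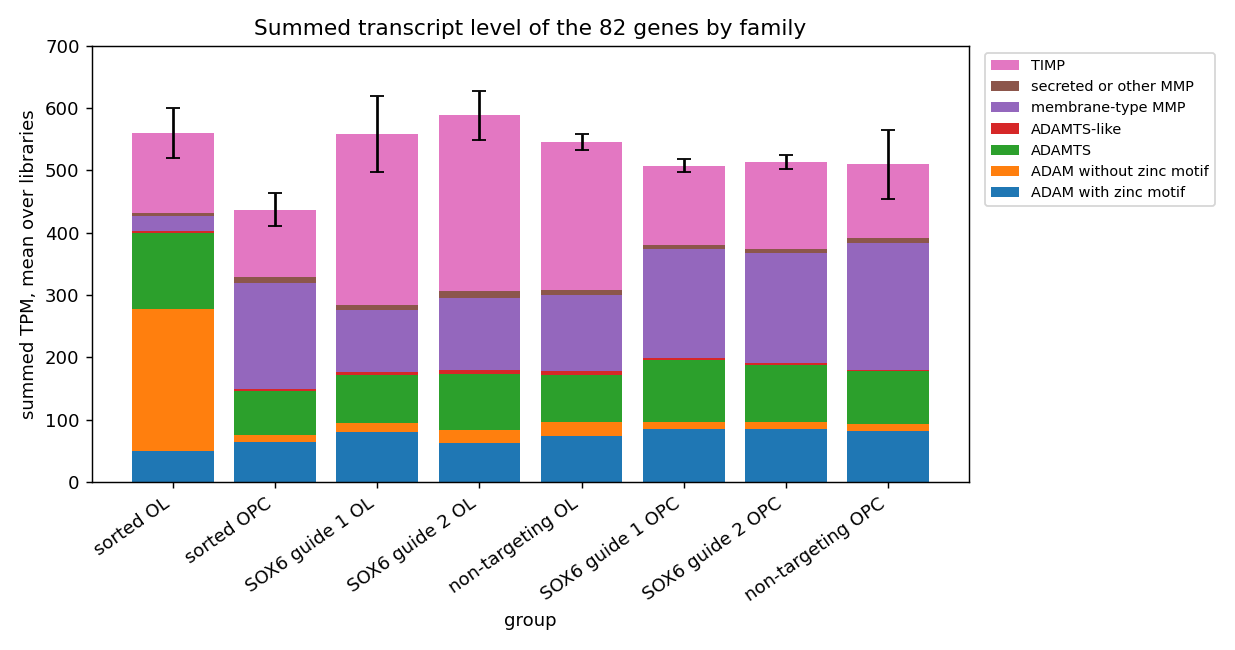
Stacked bars give the summed TPM of each family, averaged over the libraries of a group, and the black bars give the SD of the sum over all 82 members (n = 3, but 2 for guide 1 OPCs). Totals lie between 437 and 588 TPM in all 8 groups, while the parts differ, with ADAM genes without the motif at 228 TPM in sorted OLs and membrane-type MMP genes at 204 TPM in non-targeting OPCs.

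The first comparison set sorted O1+ OLs against sorted OPCs, the change that comes with becoming an oligodendrocyte. Adam11, Adamts4 and Adamts17 were the members with the largest rises, and Adam12, Mmp15 and Adamts7 had the largest falls. Of 28 members tested, 9 were higher and 13 lower in sorted OLs at an adjusted p under 0.05, where 61.0% of the 11883 genes tested passed (limma on log2(TPM + 1), Benjamini-Hochberg over all genes tested). The members' median difference was -0.60, beside -0.14 for all genes tested. In these bulk samples fewer cells of a type and less RNA per cell cannot be told apart.

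Among the ADAM genes, Adam11, which has no zinc motif, had 171, 245 and 203 TPM in sorted OLs, against 2.68, 1.59 and 2.79 TPM in sorted OPCs. The groups lay far apart, and the log2 difference was 5.95 ± 0.19 (SE; limma adjusted p = 7.08e-07). Its relative Adam23 had 13.4, 16.97 and 17.2 TPM in sorted OLs and 6.38, 4.43 and 4.51 TPM in sorted OPCs, a log2 difference of 1.47 ± 0.18 (SE). Adam22, the most abundant of the 3 in cultured OLs, did not pass in sorted cells. Adam9, a broadly expressed membrane protease, rose to 32.5, 30.3 and 37.7 TPM in sorted OLs, against 20.6, 14.4 and 25.4 TPM in sorted OPCs (log2 difference 0.74 ± 0.20, SE; limma adjusted p = 0.0153). Adam12, a membrane protease known from muscle precursors, was listed at 0 in 2 sorted OL libraries and at 0.347 TPM in the third, against 25.4, 22.4 and 17.1 TPM in sorted OPCs. No sorted OL library came near the lowest sorted OPC library (log2 difference -4.34 ± 0.21, SE; limma adjusted p = 4.36e-06). Adam19, another membrane protease, fell by 0.84 on the log2 scale. Adam1a, a gene known from the testis, rose by 0.46 on that scale at low levels, with 1.75, 1.34 and 1.37 TPM in sorted OLs against 0.874, 0.702 and 0.851 TPM in sorted OPCs. That call was lost without sorted OPC library A, B or C in turn (limma adjusted p of 0.115, 0.157 and 0.0962), and 63.7% of the exon bases of Adam1a also belong to Gm42878, so its value is uncertain.

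Among the ADAMTS genes the oligodendrocyte marker Adamts4, a proteoglycan-cutting enzyme, had 99.0, 98.2 and 95.1 TPM in sorted OLs, against 3.35, 3.08 and 5.54 TPM in sorted OPCs. The sorted OL libraries were close to each other and all far above the sorted OPC libraries. The log2 difference was 4.33 ± 0.18 (SE; limma adjusted p = 2.12e-06). Adamts17 had 5.84, 5.56 and 8.09 TPM in sorted OLs and 0.880, 0.429 and 0.684 TPM in sorted OPCs, and Adamts3, of the procollagen-trimming subgroup, had 3.01, 4.29 and 3.56 TPM against 0.488, 0.765 and 0.312 TPM. Their log2 differences were 2.17 ± 0.20 and 1.60 ± 0.20 (SE). The other 5 ADAMTS genes tested were lower in sorted OLs. Adamts7 had 3.80, 3.67 and 2.47 TPM in sorted OLs against 21.3, 24.8 and 33.3 TPM in sorted OPCs. Adamts10, a partner of fibrillin fibres, had 1.08, 1.58 and 1.69 TPM against 12.1, 11.9 and 10.6 TPM, and Adamts12 had 1.47, 1.91 and 1.4995 TPM against 7.95, 8.97 and 13.1 TPM. The log2 differences were -2.66 for Adamts7, -2.36 for Adamts10, -2.05 for Adamts12 and -1.39 for Adamts6, and all 4 passed. The smaller fall of Adamts9, another proteoglycan-cutting enzyme, had an adjusted p of 0.0482 (limma), and without sorted OPC library A or C or sorted OL library A or B it was 0.128, 0.126, 0.129 and 0.109. It also missed the threshold with a pseudocount of 0.1 (0.0541), without the TPM filter (0.0969) and with median centring (0.0633). Of the ADAMTS-like genes, which lack a protease domain, Adamtsl1 was the 1 tested and rose by 1.19 on the log2 scale, to 2.59, 2.86 and 2.59 TPM in sorted OLs against 0.749, 0.483 and 0.621 TPM in sorted OPCs.

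All 3 membrane-type MMP genes tested were lower in sorted OLs. Mmp15 encodes MT2-MMP and was the most abundant protease of OPCs among the 82 members. It had 11.99, 12.9 and 13.8 TPM in sorted OLs, against 165, 133 and 132 TPM in sorted OPCs. Its levels did not overlap, and the log2 difference of -3.37 ± 0.11 (SE; limma adjusted p = 8.00e-07) was a 10.3-fold fall on the log2(TPM + 1) scale. Mmp16, which encodes MT3-MMP, had 8.74, 8.05 and 6.21 TPM in sorted OLs and 23.5, 20.5 and 23.1 TPM in sorted OPCs (log2 difference -1.44 ± 0.15, SE; limma adjusted p = 0.000139). Mmp17, which encodes the lipid-anchored MT4-MMP, had 1.91, 1.40 and 1.73 TPM in sorted OLs and 3.07, 2.47 and 3.36 TPM in sorted OPCs. Its difference of -0.57 ± 0.18 (SE; limma adjusted p = 0.0270) was no longer called without sorted OPC library A or C or sorted OL library B or C (adjusted p of 0.0883, 0.0833, 0.0900 and 0.0616), after centring each library on its median (0.0569), or without the TPM filter (0.0634). Mmp2, the secreted gelatinase, had 2.23, 2.13 and 1.40 TPM in sorted OLs against 8.31, 5.80 and 5.96 TPM in sorted OPCs, a log2 difference of -1.39 ± 0.21 (SE).

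The inhibitors did not move together. Timp2, which inhibits MMP2 and also helps to activate it, had 88.6, 91.3 and 81.7 TPM in sorted OLs, against 33.5, 32.8 and 37.4 TPM in sorted OPCs. Its groups did not overlap, with a log2 difference of 1.31 ± 0.084 (SE; limma adjusted p = 1.38e-05). Timp4, an inhibitor found mainly in brain and heart, had 26.1, 27.8 and 30.8 TPM in sorted OLs, against 58.8, 55.1 and 63.7 TPM in sorted OPCs, a log2 difference of -1.04 ± 0.095 (SE; limma adjusted p = 7.98e-05). Timp1 fell by 1.31 on the log2 scale, to 0.269, 0.467 and 0.420 TPM in sorted OLs against 2.64, 3.10 and 1.69 TPM in sorted OPCs. Timp3, the inhibitor that binds the matrix, had 15.6, 9.60 and 13.3 TPM in sorted OLs and 12.9, 5.80 and 14.6 TPM in sorted OPCs, and these ranges overlapped (limma adjusted p = 0.537). Timp1, Timp3 and Timp4 each lie inside a synapsin gene on the opposite strand, and the library kit does not mark strand. Timp3 shares 21.3% of its exon bases with Syn3 and Timp4 shares 1.53% with Syn2, while Timp1 shares none with Syn1.

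The second comparison set non-targeting OL cultures, unsorted and after 60 hours, against non-targeting OPC cultures. The 6 OPC markers summed to 3647 TPM in non-targeting OLs and 3664 TPM in non-targeting OPCs, and 3 of 6 rose and 3 fell. Of 50 members tested, 14 were higher and 10 lower in OLs at an adjusted p under 0.05, where 43.0% of the 14352 genes tested passed (edgeR's quasi-likelihood test on estimated counts with Benjamini-Hochberg adjustment, all 17 libraries in 1 fit). The members' median log2 difference was 0.24, beside 0.02 for all genes tested. The stages were deposited in separate tables, and stage and table of origin cannot be told apart. Astrocyte markers differed between these cultures as well. The 12 listed genes summed to 5544 TPM in non-targeting OLs against 783 TPM in non-targeting OPCs, and 8 of 11 tested rose. Their part in the results was not tested. Microglia markers summed to 0.641 TPM in non-targeting OLs and 0.474 TPM in non-targeting OPCs, with all 10 genes under 1 TPM.

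Adamts4 had 45.6, 51.0 and 55.2 CPM in non-targeting OLs, against 12.3, 14.9 and 14.4 CPM in non-targeting OPCs. The groups were well apart, and the rise was 3.64-fold (log2 difference 1.87 ± 0.11, SE; edgeR adjusted p = 3.71e-09). Adam11 had 6.84, 7.63 and 6.84 CPM in non-targeting OLs against 2.01, 3.25 and 2.69 CPM in non-targeting OPCs, a log2 difference of 1.42 ± 0.28 (SE; edgeR adjusted p = 0.000830). Its level per length stayed low in this culture, at 3.05, 5.59 and 3.65 TPM in non-targeting OLs. Adamtsl1 had 11.9, 10.5 and 12.97 CPM in non-targeting OLs against 3.15, 3.18 and 3.19 CPM in non-targeting OPCs, and Adamts2, which trims procollagen, had 7.60, 6.11 and 6.12 CPM against 1.58, 2.06 and 2.90 CPM. Their log2 differences were 1.89 ± 0.26 and 1.60 ± 0.25 (SE). Adamts17 and Adamtsl4 passed narrowly (edgeR adjusted p of 0.0486 and 0.0478). Leaving out any 1 of the 6 non-targeting libraries ended the call for Adamts17 (0.0617 to 0.137). So did leaving out any 1 of the 5 targeted OPC libraries or OL guide 2 library C (0.0563 to 0.0654). Without the count filter its adjusted p was 0.127, and a transcript length offset took its difference to 0.08 (0.913). For Adamtsl4 the call ended without any 1 of the 8 OPC libraries, non-targeting OL library A or B, any guide 1 OL library or OL guide 2 library A (0.0501 to 0.168). It also ended without the count filter (edgeR adjusted p = 0.121), with the transcript length offset (0.244) and with DESeq2 (adjusted p = 0.0746).

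Mmp15 fell in culture as in the sort, with 339, 375 and 364 CPM in non-targeting OLs against 864, 879 and 885 CPM in non-targeting OPCs (log2 difference -1.29 ± 0.084, SE; edgeR adjusted p = 1.37e-08). Adamts7 had 57.4, 64.7 and 52.6 CPM in non-targeting OLs against 142, 157 and 163 CPM in non-targeting OPCs. Adam12 had 1.28, 1.64 and 2.52 CPM against 9.03, 11.2 and 9.70 CPM, and Mmp2 had 4.00, 2.58 and 4.54 CPM against 12.8, 12.9 and 13.5 CPM. Their log2 differences were -1.40 ± 0.14, -2.47 ± 0.50 and -1.82 ± 0.27 (SE), and none of these groups overlapped. Adam19 had a log2 difference of -1.16 and Adamtsl3, a matrix protein without protease domain, one of -1.41, and both passed. Adamts19 fell by 2.07 on the log2 scale at 0.464, 0.189 and 0.360 CPM in non-targeting OLs and 2.01, 0.999 and 1.34 CPM in non-targeting OPCs. Adamts6 fell by 0.43 on that scale, and Timp1 fell by 2.19. The Adamts6 call was lost without non-targeting OPC library B or C or any 1 of the non-targeting OL libraries (edgeR adjusted p of 0.0584 to 0.141). It was also lost without OPC guide 1 library A or B, OPC guide 2 library A or OL guide 2 library A (0.0527 to 0.0541). Other settings that ended it were library totals (0.0983), no count filter (0.0534) and the transcript length offset (0.118). The Timp1 call was lost without any 1 of the 6 non-targeting libraries (0.0532 to 0.101).

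Adam15 shows how much the transcript length matters. Its counts fell to 2.67, 4.79 and 3.39 CPM in non-targeting OLs, against 15.6, 19.05 and 18.5 CPM in non-targeting OPCs, a log2 difference of -2.29 ± 0.35 (SE; edgeR adjusted p = 9.30e-05). Its level per length was 5.02, 13.3 and 5.37 TPM in non-targeting OLs and 9.29, 15.1 and 8.30 TPM in non-targeting OPCs, and these ranges overlapped. With an offset for transcript length the difference was -0.64 (adjusted p = 0.516), and 20.6% of the exon bases of Adam15 are shared with an antisense gene. The fall of Adamtsl3 was -0.70 with that offset (adjusted p = 0.412).

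In the cultures 3 membrane-type MMP genes rose. Mmp16 had 91.1, 84.8 and 88.7 CPM in non-targeting OLs, against 41.0, 42.3 and 43.7 CPM in non-targeting OPCs (log2 difference 1.06 ± 0.23, SE; edgeR adjusted p = 0.00195). Mmp17 had 25.1, 27.2 and 25.6 CPM in non-targeting OLs against 16.3, 14.7 and 16.9 CPM in non-targeting OPCs, a log2 difference of 0.70 ± 0.10 (SE). Mmp24, which encodes the neural MT5-MMP, had 9.45, 11.3 and 9.80 CPM against 2.65, 3.43 and 2.90 CPM, a log2 difference of 1.76 ± 0.29 (SE). The groups of each gene were apart. Mmp19 and Mmp28, secreted enzymes, rose by 1.42 and 0.85 on the log2 scale. Mmp28 had an edgeR adjusted p of 0.0589 without non-targeting OPC library A. Mmp19, Mmp24 and Mmp28 share 22.3%, 13.6% and 12.03% of their exon bases with a gene on the opposite strand.

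Timp4 had 349, 354 and 354 CPM in non-targeting OLs, against 149, 162 and 134 CPM in non-targeting OPCs. The log2 difference was 1.25 ± 0.12 (SE; edgeR adjusted p = 8.22e-07), and the OL libraries were close to each other. Timp3 rose by 2.06 on the log2 scale from a low level, to 2.96, 4.29 and 3.39 CPM in non-targeting OLs against 0.287, 1.31 and 0.920 CPM in non-targeting OPCs (edgeR adjusted p = 0.00924, and 0.0578 with the transcript length offset). Timp2 had 184, 182 and 191 CPM in non-targeting OLs and 158, 187 and 178 CPM in non-targeting OPCs, and did not pass (0.325). Adam1a, with the shared exons named above, rose by 1.05 on the log2 scale (edgeR adjusted p = 0.0153, and 0.0516 without non-targeting OPC library A).

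Of the 28 members tested in both comparisons, 15 passed both tests, 12 in the same direction and 3 in opposite directions. Over all 11655 genes tested in both, 4070 passed both tests (34.9%), 3558 in the same direction and 512 in opposite directions. The 12 members were Adam11, Adamts4, Adamts17, Adamtsl1 and Adam1a, higher in OLs in both, and Adam12, Adam19, Adamts6, Adamts7, Mmp2, Mmp15 and Timp1, lower in OLs in both. Mmp16, Mmp17 and Timp4 were lower in sorted OLs than in sorted OPCs and higher in OL cultures than in OPC cultures, with no overlap of groups in either setting. By TPM, Timp4 had 166, 173 and 177 in non-targeting OLs against 55.6, 64.9 and 69.7 in non-targeting OPCs, beside 26.1 to 30.8 in sorted OLs and 55.1 to 63.7 in sorted OPCs. Astrocyte markers summed to 3087 TPM in sorted OLs (2085 to 4154 TPM) against 624 TPM in sorted OPCs (585 to 655 TPM), where 4 of 10 tested rose and 3 fell, and their part in the result was not tested. Sorted and cultured cells differ in medium, time, sort and table, and the difference between the settings was not tested.

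**Figure D3:**
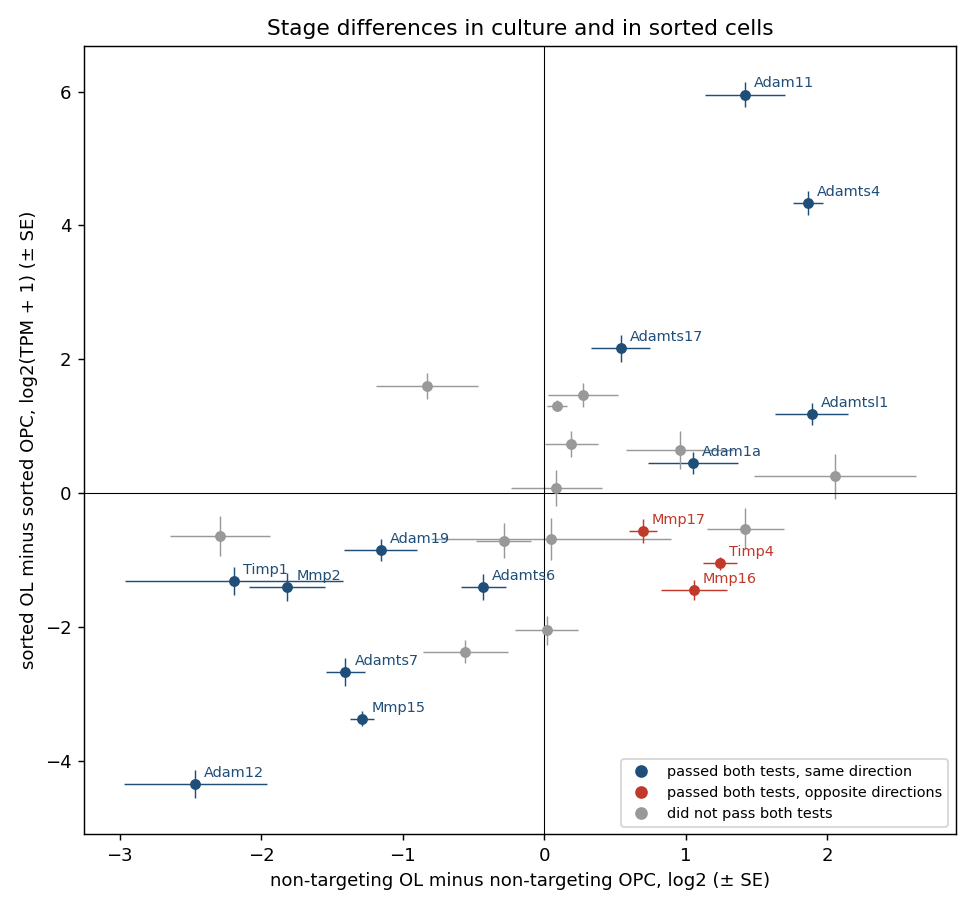
Each point is 1 of the 28 members tested in both settings, with the log2 difference between non-targeting OL and OPC cultures across and that between sorted OLs and sorted OPCs upwards, and bars of 1 SE. Blue points passed both tests in 1 direction, and the red points of Mmp16, Mmp17 and Timp4 lie in the quadrant of higher in OL cultures and lower in sorted OLs.

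The third comparison asked what SOX6 targeting did in OPCs kept in growth medium. Adamts4 was the member that rose, and 7 members fell: Mmp16, Mmp15, Mmp17, Mmp2, Adamts5, Adamts9 and Adamtsl3. These were 8 of 44 members tested, where 3.59% of the 13358 genes tested passed (edgeR's quasi-likelihood test with Benjamini-Hochberg adjustment, both guides against the non-targeting guide). The members' median log2 difference was 0.00, beside 0.00 for all genes tested. Neuron markers moved with targeting: the 12 listed genes summed to 146 TPM with guide 1 and 153 TPM with guide 2, against 196 TPM in non-targeting OPCs (192 to 202 TPM), and 5 of 12 fell and 1 rose. Astrocyte markers summed to 991 and 904 TPM with guide 1 and guide 2, against 783 TPM in non-targeting OPCs (3 of 11 tested rose and 1 fell). Oligodendrocyte markers summed to 128 and 113 TPM with guide 1 and guide 2, against 74.5 TPM in non-targeting OPCs. Of these, 4 of 4 tested rose, Adamts4 among them, with a median log2 difference of 1.05. The 6 OPC markers summed to 3905 and 3759 TPM with guide 1 and guide 2, against 3664 TPM in non-targeting OPCs, and 1 of 6 fell. The part of these in the results was not tested.

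Adamts4 had 27.8 and 26.1 CPM with guide 1 and 26.4, 26.7 and 27.9 CPM with guide 2, against 12.3, 14.9 and 14.4 CPM in non-targeting OPCs. All 5 targeted libraries lay above the control libraries, by 1.97-fold (log2 difference 0.98 ± 0.094, SE; edgeR adjusted p = 0.00147). The guides gave nearly the same difference, 0.99 ± 0.11 for guide 1 and 0.97 ± 0.10 for guide 2 (SE). Without guide 1 library A or B, the difference for guide 1 alone had adjusted p of 0.0854 and 0.0594, while that over both guides kept its call in every alternative run (adjusted p up to 0.0135). In the authors' deposited table, which divides control by targeted, the log2 value was -0.97 (adjusted p = 2.70e-14).

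Mmp16 fell to 25.2 and 24.5 CPM with guide 1 and 25.5, 24.4 and 23.6 CPM with guide 2, against 41.0, 42.3 and 43.7 CPM in non-targeting OPCs. The targeted libraries were close to each other and all lay below the controls (log2 difference -0.76 ± 0.058, SE; edgeR adjusted p = 0.000737). Both guides passed alone, and the call was lost in 1 of 14 alternatives, with both stages in 1 fit (0.0945). Mmp17 fell to 9.51 and 9.56 CPM with guide 1 and 12.2, 12.1 and 12.3 CPM with guide 2, against 16.3, 14.7 and 16.9 CPM in non-targeting OPCs (log2 difference -0.54 ± 0.095, SE; edgeR adjusted p = 0.0203). The guides did not overlap each other, and guide 2 alone did not pass (0.151). Mmp15 had the smallest change, with 689 and 731 CPM with guide 1 and 808, 766 and 741 CPM with guide 2, against 864, 879 and 885 CPM in non-targeting OPCs (log2 difference -0.22 ± 0.039, SE; edgeR adjusted p = 0.0196).

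Lower in level were the secreted gelatinase Mmp2, at 7.62 and 5.23 CPM with guide 1 and 8.46, 8.64 and 5.90 CPM with guide 2, against 12.8, 12.9 and 13.5 CPM in non-targeting OPCs. Adamts5, the close relative of Adamts4 that also cuts aggrecan, had 5.90 and 4.99 CPM with guide 1 and 5.28, 4.79 and 3.85 CPM with guide 2, against 10.8, 7.68 and 11.8 CPM. Adamtsl3 had 2.29 and 2.16 CPM with guide 1 and 2.88, 2.57 and 2.29 CPM with guide 2, against 4.30, 4.56 and 5.24 CPM. Adamts9 had 35.4 and 34.8 CPM with guide 1 and 37.4, 37.2 and 39.6 CPM with guide 2, against 46.9, 47.8 and 54.9 CPM. In all 4 genes the targeted libraries lay below the control libraries, with log2 differences of -0.88 ± 0.17 for Mmp2, -0.98 ± 0.19 for Adamts5, -0.95 ± 0.19 for Adamtsl3 and -0.43 ± 0.069 for Adamts9 (SE), and edgeR adjusted p of 0.0332, 0.0282, 0.0337 and 0.0151.

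These calls rested on all 8 libraries. Without guide 1 library A or B, every one of Mmp15, Mmp17, Mmp2, Adamts5, Adamts9 and Adamtsl3 lost its call, with adjusted p between 0.0539 and 0.129. Without non-targeting OPC library A, Mmp17, Mmp2, Adamts5 and Adamtsl3 did too (0.0557, 0.0689, 0.0765 and 0.0595), without library B, Mmp15, Mmp2 and Adamtsl3 (0.0825, 0.104 and 0.104), and without library C, Mmp2, Adamts5 and Adamtsl3 (0.0659, 0.0657 and 0.0761). Guide 2 library A, B or C each decided Mmp17, Mmp2, Adamts5 and Adamtsl3 (0.0507 to 0.0767), and library B also Mmp15 (0.0596). With both stages in 1 fit, Adamts9, Mmp15, Mmp2 and Adamts5 lost their calls (edgeR adjusted p of 0.308, 0.156, 0.0709 and 0.0512). The transcript length offset ended those of Adamts5 and Adamtsl3 (0.0524 and 0.209). Without the count filter that of Adamtsl3 ended (0.0600). The log2 difference kept its sign in each of these fits, and the authors' deposited table calls all 6. It also calls Timp4 and Adamtsl2. Timp4 had 179 and 169 CPM with guide 1 and 182, 178 and 178 CPM with guide 2, against 149, 162 and 134 CPM in non-targeting OPCs, with an edgeR adjusted p of 0.0515.

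The fourth comparison asked the same in OL cultures. Adamts4 rose, and Adam11 and Mmp16 fell. These were 3 of 41 members tested, where 6.50% of the 13447 genes tested passed (edgeR's quasi-likelihood test with Benjamini-Hochberg adjustment). Of all genes, 421 were higher and 453 lower, and with library totals in place of TMM scaling 315 were higher and 553 lower. The members' median log2 difference was 0.07, beside 0.00 for all genes tested. Neuron markers summed to 169 TPM with guide 1 and 202 TPM with guide 2, against 241 TPM in non-targeting OLs, and 4 of 11 tested fell. Astrocyte markers summed to 6303 and 6634 TPM against 5544 TPM, and 1 of 11 tested rose. Oligodendrocyte markers summed to 1415 TPM with guide 1 (1137 to 1594 TPM) and 1724 TPM with guide 2, against 1308 TPM in non-targeting OLs (1214 to 1378 TPM). Of 6 tested 4 rose, Adamts4 among them, and the median log2 difference was 0.44. The 6 OPC markers summed to 3177 and 3512 TPM with guide 1 and guide 2, against 3647 TPM in non-targeting OLs, and 3 of 6 fell. The part of these in the results was not tested. Without OL guide 1 library B, 9 members passed (4 higher and 5 lower) and 2337 genes in all, against 874 with it. Adamts5 and Adamtsl3 had log2 differences of -0.99 and -1.04 in OLs (edgeR adjusted p of 0.0644 and 0.0658). Both passed with both stages in 1 fit (edgeR adjusted p of 0.0110 and 0.00323). Their responses in OLs minus those in OPCs were 0.01 and -0.07, and neither passed. The authors' deposited table for OLs calls Adamts5 and Timp4 (DESeq2 adjusted p of 0.0215 and 0.0262) but not Adamtsl3 (0.0835).

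Adamts4 had 103, 86.3 and 103 CPM with guide 1 and 111, 92.9 and 102 CPM with guide 2, against 45.6, 51.0 and 55.2 CPM in non-targeting OLs. All 6 targeted libraries were above the controls, by 1.97-fold (log2 difference 0.98 ± 0.10, SE; edgeR adjusted p = 0.000836). Adding targeting and stage, Adamts4 was highest in targeted OLs and lowest in non-targeting OPCs, and the range of targeted OPCs lay between those of the control cultures. The response in OLs minus that in OPCs was 0.02, with an approximate 95% interval of -0.24 to 0.28.

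Adam11 had 2.77, 2.56 and 2.45 CPM with guide 1 and 2.48, 2.52 and 3.46 CPM with guide 2, against 6.84, 7.63 and 6.84 CPM in non-targeting OLs. Every targeted library was below every control library, by 2.63-fold (log2 difference -1.39 ± 0.18, SE; edgeR adjusted p = 0.00254). The targeted OLs overlapped the range of non-targeting OPCs, 2.01 to 3.25 CPM. In OPCs targeting changed Adam11 by -0.08 (approximate 95% interval -0.69 to 0.54). The difference between the stages, -1.29, did not pass (edgeR adjusted p = 0.0945, and 0.0499 without OPC guide 2 library A). DESeq2 called that difference (-1.30, adjusted p = 0.0160). Its partners of the same group, Adam22 and Adam23, did not pass in OLs; Adam23 had 10.5, 4.58 and 10.3 CPM with guide 1 and 11.4, 16.1 and 11.3 CPM with guide 2, against 17.8, 18.8 and 21.0 CPM in non-targeting OLs (edgeR adjusted p = 0.0852, and 0.00706 without OL guide 1 library B).

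Mmp16 had 43.2, 17.4 and 44.7 CPM with guide 1 and 45.3, 55.5 and 43.1 CPM with guide 2, against 91.1, 84.8 and 88.7 CPM in non-targeting OLs. The 17.4 CPM belonged to library B, and the groups did not overlap with or without it. The log2 difference was -1.11 ± 0.25 (SE; edgeR adjusted p = 0.0330), and -0.95 ± 0.082 without library B (adjusted p = 9.12e-05). With library B kept, leaving out non-targeting OL library A, B or C gave adjusted p of 0.145, 0.120 and 0.136, and leaving out guide 2 library A, B or C gave 0.0837, 0.0563 and 0.0839. It was 0.0592 with the transcript length offset, and guide 2 alone did not pass (log2 difference -0.88, adjusted p = 0.173). Without OL guide 1 library B, Adamts9, Adamts7 and Timp4 also passed upwards (log2 differences of 0.54, 0.34 and 0.35), and Adamts5, Adam23 and Timp2 downwards (-0.87, -0.73 and -0.19). Timp4 had 453, 652 and 437 CPM with guide 1 and 458, 457 and 457 CPM with guide 2, against 349, 354 and 354 CPM in non-targeting OLs, and all targeted libraries were above the controls (edgeR adjusted p = 0.0608 with library B, and 0.0428 without guide 1 library C).

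**Figure D4:**
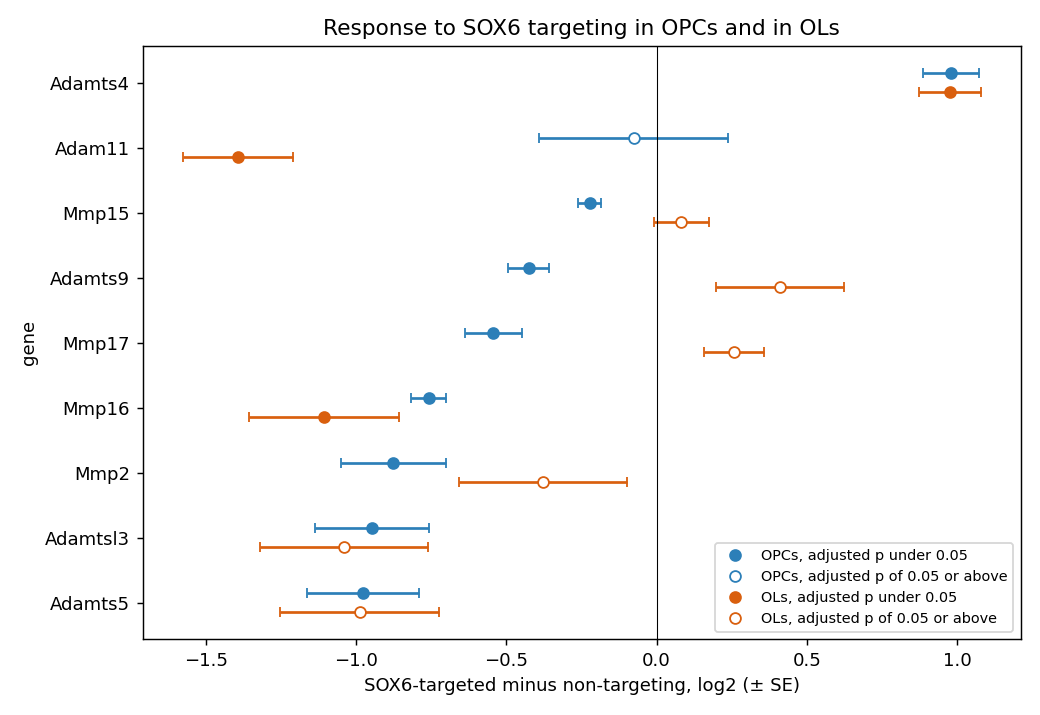
Log2 difference between SOX6-targeted (both guides) and non-targeting libraries with bars of 1 SE, for the 9 members that passed in OPCs (blue) or OLs (orange). Filled points have an adjusted p under 0.05; Adamts4 lies at 0.98 in both stages, and the orange points of Mmp17, Adamts9 and Mmp15 lie on the other side of 0 from the blue ones without passing.

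The fifth comparison tested whether the response to targeting differed between the stages. Of 50 members tested Mmp17 alone passed, where 1.69% of the 14352 genes tested did (edgeR's quasi-likelihood test with Benjamini-Hochberg adjustment). At an unadjusted p under 0.05 there were 6 members, and 1594 of all genes tested (11.1%). In OLs Mmp17 had 33.5, 27.2 and 27.9 CPM with guide 1 and 32.3, 30.6 and 35.3 CPM with guide 2, against 25.1, 27.2 and 25.6 CPM in non-targeting OLs. All 6 targeted OL libraries lay above the controls, the lowest of them, 27.21 CPM, just above the highest control, 27.16 CPM, where all 5 targeted OPC libraries lay below theirs. The log2 difference in OLs was 0.26 ± 0.10 (SE; edgeR adjusted p = 0.200), beside -0.54 in OPCs, and the difference between these responses was 0.83 ± 0.13 (SE; adjusted p = 0.00380). It passed in all 22 alternatives, with values of 0.73 to 0.88 and adjusted p up to 0.0209. Of all genes, 132 had a higher and 111 a lower response in OLs, and 86 and 161 with library totals, which put the median of all genes at -0.08, beside 0.02 with TMM scaling. Adamts9 had 59.7, 27.9 and 54.2 CPM with guide 1 and 65.3, 58.7 and 63.8 CPM with guide 2, against 43.7, 42.0 and 36.8 CPM in non-targeting OLs; its stage difference of 0.86 did not pass (0.114), and without OL guide 1 library B it was 0.99 (edgeR adjusted p = 6.76e-05). DESeq2 called the stage difference of Adamts9 with all libraries (0.85, adjusted p = 0.0302). Without OL guide 1 library B that of Mmp15 passed as well (0.38, edgeR adjusted p = 0.00512).

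**Figure D5:**
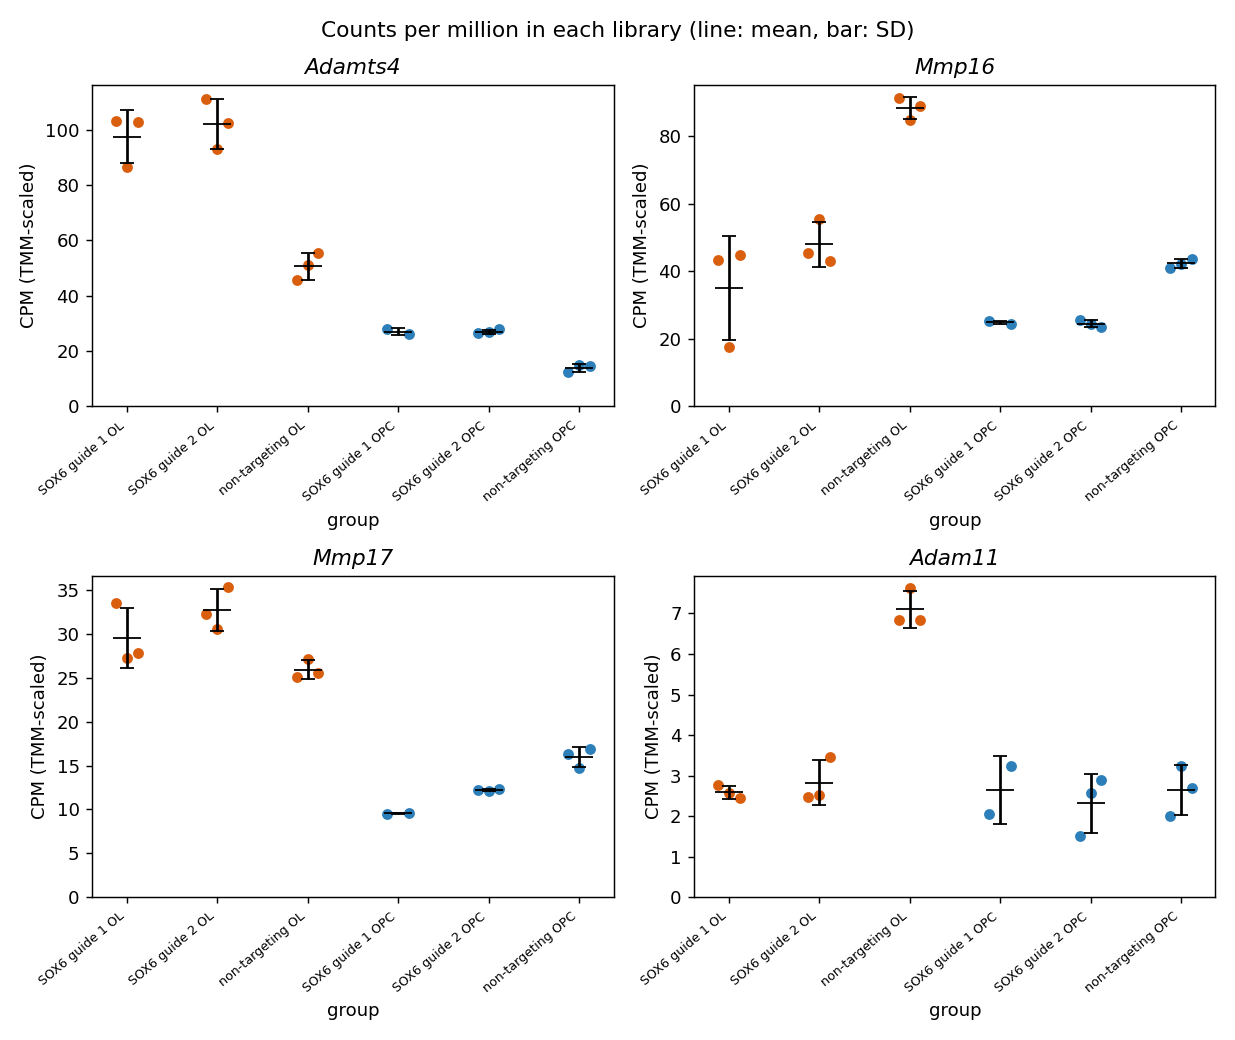
TMM-scaled CPM of Adamts4, Mmp16, Mmp17 and Adam11 in each library of the SOX6 experiment, OLs in orange and OPCs in blue, with the mean as a line and the SD as a bar. Adamts4 is higher with both guides in both stages, Mmp16 is lower with both guides in both stages, Mmp17 is lower with both guides in OPCs alone, and Adam11 in non-targeting OLs (6.84 to 7.63 CPM) stands above the other 5 groups.

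The best known sheddases of the group stayed low in TPM. Few counts stood behind Adam10, with 533 in all over the 17 libraries of the SOX6 experiment. Adam10 had 0.473 to 1.63 TPM in sorted OLs, 1.33 to 3.41 TPM in sorted OPCs and 0.768 to 7.81 TPM in the SOX6 experiment, where its highest library was OL guide 2 library B. Adam17 had 3.61 to 5.84 TPM in sorted OLs, 2.88 to 6.14 TPM in sorted OPCs and 1.83 to 6.10 TPM in the SOX6 experiment. Neither passed in any of the 5 comparisons, and the intervals were wide. The log2 response of Adam10 to targeting was 0.53 in OPCs (approximate 95% interval -0.85 to 1.91) and 1.05 in OLs (-0.34 to 2.43). That of Adam17 was 0.45 in OPCs (-0.05 to 0.94) and 0.16 in OLs (-0.39 to 0.72). Guide 2 and guide 1 were also set against each other, and no member passed in OPCs or OLs (edgeR's quasi-likelihood test, 0 of 13358 and 0 of 13447 genes called, with 1106 and 773 at an unadjusted p under 0.05, among them 2 and 3 members). This does not show that the guides act alike.

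Genes around the proteases were counted from 7 lists, and their counts stand beside the share of all genes tested that passed, 61.0% in sorted OLs minus sorted OPCs, 43.0% in non-targeting OLs minus non-targeting OPCs, 3.59% with targeting in OPCs and 6.50% with targeting in OLs. A list's share near these is no result about the list. Calls of list genes come from the fits with all libraries, OL guide 1 library B included, and no alternative run is given for them. In sorted OLs minus sorted OPCs the median log2 differences of the tested genes, beside -0.14 for all genes tested, were 0.44 for regulators of the sheddases, 1.04 for other extracellular metalloproteases, 0.71 for further regulators, 0.97 for the plasminogen activator system, 0.85 for substrates and partners of ADAMTS enzymes, 0.29 for substrates of ADAM10 and ADAM17 and 1.85 for ligands of the ADAM22 group. In non-targeting OLs minus non-targeting OPCs, beside 0.02 for all genes tested, the same medians were -0.06, -0.07, 0.29, 0.06, 0.62, 0.32 and 1.74. Of the 13 regulators of the sheddases, 11 were tested, and 6 were higher and 2 lower in sorted OLs than in sorted OPCs, and 1 was higher and 2 lower in non-targeting OLs than in non-targeting OPCs (beside 61.0% and 43.0% of all genes tested). Tspan17, a tetraspanin that escorts ADAM10, had 57.6 ± 11.2 TPM in sorted OLs and 3.41 ± 2.35 TPM in sorted OPCs (SD, n = 3 each), and its log2 difference was 3.90 (limma with Benjamini-Hochberg adjustment, adjusted p = 0.000245). Tspan5, another escort of ADAM10, fell by 1.33 on the log2 scale in sorted OLs and was the 1 regulator that passed with targeting, higher by 0.27 in OPCs and 0.37 in OLs (edgeR adjusted p of 0.00522 and 0.0239).

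The 4 secreted LGI ligands of the ADAM22 group gave 2 higher and 1 lower of 3 tested in sorted OLs, and the same counts in non-targeting OLs, where 61.0% and 43.0% of all genes tested passed. Lgi3 had 221 ± 10.6 TPM in sorted OLs and 1.66 ± 0.135 TPM in sorted OPCs (SD, n = 3 each), a log2 difference of 6.38 (limma adjusted p = 6.14e-08). In the cultures Lgi3 had 15.6 ± 0.627 and 17.7 ± 2.05 CPM in OLs with guide 1 and guide 2, against 22.5 ± 1.40 CPM in non-targeting OLs (SD, n = 3 each), and fell by 0.44 on the log2 scale (edgeR adjusted p = 0.0415).

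Among 10 matrix substrates and partners of ADAMTS enzymes, 5 of 9 tested were higher and 3 lower in sorted OLs, and 5 of 10 were higher and 2 lower in non-targeting OLs, where 61.0% and 43.0% of all genes tested passed. Fbln2, which encodes fibulin-2, had 0.579 ± 0.046 TPM in sorted OLs and 67.8 ± 11.01 TPM in sorted OPCs (SD, n = 3 each). With targeting, Fbln2 rose by 0.51 in OPCs and 0.81 in OLs on the log2 scale (edgeR adjusted p of 0.000737 and 0.00159). Acan, which encodes the proteoglycan aggrecan, had 1.24 ± 0.515 and 1.27 ± 0.498 CPM in OLs with guide 1 and guide 2, against 5.10 ± 0.702 CPM in non-targeting OLs (SD, n = 3 each), a log2 difference of -2.02 (edgeR adjusted p = 0.00782).

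From a list of 16 genes kept as substrates of ADAM10 and ADAM17, 12 were tested in sorted cells. Of these, 5 were higher and 3 lower in sorted OLs, close to the 61.0% of all genes tested that passed. App, the amyloid precursor, had 217 ± 15.6 TPM in sorted OLs and 46.4 ± 3.58 TPM in sorted OPCs (SD, n = 3 each). Notch1 had 18.7 to 23.5 TPM in sorted OLs and 61.2 to 66.6 TPM in sorted OPCs. Of 13 tested in the cultures, 6 were higher and 2 lower in non-targeting OLs, beside 43.0% of all genes tested. Dll3 is of the Notch ligand family, and whether these enzymes cut its protein was not examined. With targeting Dll3 had 27.1 ± 3.38 and 32.3 ± 1.88 CPM in OLs with guide 1 and guide 2, against 111 ± 1.54 CPM in non-targeting OLs (SD, n = 3 each). It fell, with log2 differences of -1.28 in OPCs and -1.91 in OLs (edgeR adjusted p of 0.000127 and 7.62e-06). Dll1, a ligand of Notch that ADAM10 cuts, rose by 0.69 in targeted OLs, and the responses of Dll3 and Dll1 differed between the stages by -0.61 and 0.51 (edgeR adjusted p of 0.00946 and 0.00758). Cspg4, the NG2 proteoglycan, fell by 0.76 in targeted OLs (0.0317).

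Of the 8 genes of the plasminogen activator system, Plat, which encodes tissue plasminogen activator, was the 1 that rose with targeting in both stages, to 576 ± 0.667 and 523 ± 10.4 CPM in OPCs with guide 1 and guide 2 (SD, n = 2 and 3) against 410 ± 25.6 CPM in non-targeting OPCs (SD, n = 3), by 0.44 on the log2 scale, and by 0.58 in OLs (edgeR adjusted p of 0.00241 and 0.000392). Plau, the urokinase gene, rose by 2.36 in targeted OLs at about 1 CPM (0.0377). Of 10 further regulators, Lrp1, an uptake receptor for proteases and their inhibitors, and Papln fell with targeting in OPCs. Their log2 differences were -1.26 and -0.42 (edgeR adjusted p of 0.00655 and 0.0354). Lrp1 had 11.8 CPM and 24.4 TPM in non-targeting OPCs, and a TPM above the CPM points to counts on short transcripts. Whether the full receptor message fell was not tested. In OLs 0 of 9 tested passed, and Lrp1 ranged from 12.8 to 73.6 CPM with guide 1. Reck, a membrane-anchored MMP inhibitor, had 7.60 ± 1.63 TPM in sorted OLs and 1.51 ± 0.225 TPM in sorted OPCs (SD, n = 3 each; limma adjusted p = 0.000214). Of 12 other extracellular metalloproteases, Ece1 and Bmp1 were the 2 tested in sorted cells, and both were higher in sorted OLs, by 1.42 and 0.66 on the log2 scale.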

How the data were processed

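The members, the lists and the tests were chosen with earlier results of these data known. The submitters' processing notes name Salmon 0.14.1, DESeq2 without a version, and the build mm10. Estimated counts by gene symbol were deposited by the authors for OPC and OL libraries of the SOX6 experiment in a table each, and TPM for all 23 libraries. The authors also deposited tables with log2 fold changes (control over targeted) and adjusted p-values, which were used only to set single values beside those computed here. The sorted cells were analysed from deposited TPM alone, so their depth is unknown, and 26 symbols in that table are dates.

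Estimated counts were rounded to whole numbers, filtered with filterByExpr (minimum count 10, minimum total 15), scaled by TMM and tested with the two-sided quasi-likelihood test of edgeR 4.0.16 in R 4.3.3. Each stage was fitted alone for targeting. All 17 libraries shared 1 fit for stage and for the difference between responses. CPM values are on that joint scale. Sorted cells were tested with limma 3.58.1 (eBayes with trend) on log2(TPM + 1), for genes of at least 1 TPM in at least 3 of 6 libraries. Such differences understate the change of low genes. P-values were adjusted by Benjamini-Hochberg over all genes tested, with a threshold of 0.05. Library totals were 13124580 to 18551822 estimated counts, and the SDs and SEs given cover the spread between libraries. The 95% intervals given are approximate. They use a normal multiplier of the SE, and with so few libraries they are too narrow. Named with values were members called in at least 1 of the 5 comparisons with a group mean of at least 1 CPM or TPM, the most abundant member of each family, Adamts4, Adam10 and Adam17, and of each related list up to 4 called genes of largest change. Not all of those list genes are described. The alternatives were DESeq2 1.42.0, RLE size factors, library totals, no count filter, a transcript length offset, both stages in 1 fit, a pseudocount of 0.1, no TPM filter, median centring and leaving out each library. The fits were tested on simulated data. The kit does not mark strand, and near-identical genes may have split reads between them. The TPM of all gene symbols used summed to 77.6% to 79.4% of the full TPM scale per library. What holds the rest is not known, so transcripts of a member may be missing from its level.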

Additional observations from a re-analysis of the deposited data

Results flagged for a closer look

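Mmp17 differed between the stages in its response to SOX6 targeting, by 0.83 on the log2 scale (edgeR's quasi-likelihood test, adjusted p = 0.00380), with a response of 0.26 in OLs and of -0.54 in OPCs. All 5 targeted OPC libraries lay below the 3 non-targeting OPC libraries. All 6 targeted OL libraries lay above the 3 non-targeting OL libraries, 1 of them by a small margin (27.21 against 27.16 CPM). The value without OL guide 1 library B was 0.85.

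Mmp16, Mmp17 and Timp4 differed in opposite directions in the sorted cells and in the cultures, with no overlap of groups in either setting. They were 3 of the 15 members that passed both tests. Of all genes, 512 of the 4070 that passed both tests (12.6%) had opposite directions. In sorted OLs minus sorted OPCs the log2 differences were -1.44, -0.57 and -1.04, and in non-targeting OLs minus non-targeting OPCs they were 1.06, 0.70 and 1.25. The sorted difference of Mmp17 lost its call in 6 of 9 alternatives, and those of Mmp16 and Timp4 in 0 of 9. The difference between the settings was not tested, and the settings differ in medium, time, sort and table.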

How the results depend on the processing

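No paired analysis was possible because the columns carry no replicate number of the labels. No value of a called member changed sign under any alternative run. Of the members called, 19 of 22 in sorted cells, 15 of 24 in control cultures, 1 of 8 in targeted OPCs (Adamts4), 2 of 3 in targeted OLs (Adamts4 and Adam11) and 1 of 1 between stages (Mmp17) kept their call in every alternative. In targeted OPCs, 479 genes and 8 members passed. The genes were 762 with DESeq2, 242 with the transcript length offset, 254 with both stages in 1 fit, and 149 to 550 when 1 library was left out. The members were 3 with both stages in 1 fit and 2 to 6 when 1 library was left out. In targeted OLs, 874 genes and 3 members passed. The genes were 1361 with DESeq2, 581 with the length offset, 1604 with both stages in 1 fit, and 353 to 2337 when 1 library was left out. The members were 6 with DESeq2, 8 with both stages in 1 fit and 2 to 9 when 1 library was left out. For the difference between responses, 243 genes and 1 member passed. The genes were 488 with DESeq2, 104 with the length offset and 113 to 638 when 1 library was left out. The members were 4 with DESeq2 and 1 to 3 when 1 library was left out. The highest counts in OLs and between stages came without OL guide 1 library B. Depth limits the members under 3 CPM, where few counts stand behind a value, and guide 1 OPCs have 2 libraries.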
